A study of Mus musculus with 18 samples.

Results

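The genes described here are the hepcidin genes *Hamp* and *Hamp2* and 8 genes that sense, transmit or carry out the control of body iron in the liver: the ligand gene *Bmp6*, the BMP-SMAD target genes *Smad6* and *Id1*, the sensors *Tfr2* and *Hfe*, and the transport genes *Tfrc*, *Slc39a14* and *Slc40a1*. They were chosen by name from knowledge of the pathway, with earlier results of these data known. All 10 were among the 23352 gene symbols of the tables. Liver RNA came from 18 male C57BL/6J mice aged 20 weeks that had received a high fat diet (HFD) for 12 weeks, 9 of them wild type (WT) and 9 carrying a whole-body deletion of *Gpr180* (*Gpr180*KO). *Gpr180* encodes G protein-coupled receptor 180, and the deletion was made by CRISPR/Cas9 against the introns on each side of a single exon, so every tissue of the knockout mice lacks the intact gene and a shortened transcript can remain. Both genotypes received the same diet, so the comparison holds no livers of mice on normal diet. The question was which hepatic transcripts differ between wild-type and knockout mice after HFD feeding.

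Hepcidin is a small peptide hormone that hepatocytes secrete, and it lowers plasma iron by binding the iron exporter ferroportin and causing its loss from the cell surface. Its gene is switched on mainly by bone morphogenetic proteins (BMPs), made largely by sinusoidal endothelial cells when liver iron is high, which act through BMP receptors and SMAD proteins, and also by interleukin 6 through STAT3 during inflammation. Iron inside the cell acts on a separate set of transcripts through iron regulatory proteins, which bind hairpins called iron-responsive elements, hold the transferrin receptor transcript stable and block translation of ferritin and ferroportin transcripts when iron is scarce.

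The mouse carries *Hamp* and *Hamp2* side by side on chromosome 7, and their sequences are shown first because the reads of each can be hard to tell apart and because the BMP and STAT3 elements lie close to the start site. The promoter windows are the 150 bases upstream of the RefSeq start site (build GRCm38.p6, minus strand, 5′ to 3′), at chr7:30944030-30944179 for *Hamp* and chr7:30924182-30924331 for *Hamp2*. Capitals mark exact matches to GGCGCC, the core letters of the BMP-responsive element, and to TTCTTGGAA, a STAT3 site.
Hamp: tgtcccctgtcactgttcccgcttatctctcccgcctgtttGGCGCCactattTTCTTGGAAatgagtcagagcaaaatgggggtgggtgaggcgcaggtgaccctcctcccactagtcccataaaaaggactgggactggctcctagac
Hamp2: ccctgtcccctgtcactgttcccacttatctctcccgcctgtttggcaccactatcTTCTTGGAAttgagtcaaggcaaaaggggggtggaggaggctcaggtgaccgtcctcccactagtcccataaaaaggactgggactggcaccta

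Placed by the shared STAT3 match, the windows had 135 of 147 bases identical (91.8%). In *Hamp* the GGCGCC match lay at -109 to -104 from the start site and the TTCTTGGAA match at -97 to -89, while *Hamp2* held only the second, at -94 to -86. At the place of the first match *Hamp2* differed from *Hamp* by G4A, with positions counted from 1 at the 5′ end of GGCGCC. With both strands searched and no overlap between the matches, GGCGCC occurred in 7.01% of the 32851 promoter windows of this length and TTCTTGGAA in 0.183% (60 windows). Of the 7 genes with an entry in the promoter table, *Tfrc* also held GGCGCC, at -89 to -84. These matches describe letters and not binding.

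The last 25 codons before the stop encode the mature hormone, and they are shown because they hold most of the differences between the coding sequences. Capitals mark the 14 bases that differ.
Hamp: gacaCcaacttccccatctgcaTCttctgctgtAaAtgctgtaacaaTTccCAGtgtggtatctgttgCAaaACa
Hamp2: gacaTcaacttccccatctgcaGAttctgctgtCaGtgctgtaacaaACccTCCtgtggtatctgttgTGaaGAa

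Over the whole coding sequence (83 codons in *Hamp* and 84 in *Hamp2*, GENCODE transcripts of GRCm38) 236 of 252 aligned bases were identical (93.7%). Of the 336 stretches of 75 bases that the 410-base *Hamp* transcript contains, 13 also occur in the 437-base transcript of *Hamp2*. The reads were 75 bases long, so reads from those stretches, and reads with mismatches elsewhere, could be counted for either gene. The value of each hepcidin gene is therefore uncertain to that extent. GENCODE also places a gene of the opposite strand, *Gm44662*, over both, and the sources used here do not state whether the counting used strand.

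The iron-responsive elements of the transport genes are shown next, as 30-base stretches of the transcript with the 6 loop bases in capitals. A search of the untranslated parts of GENCODE transcripts for a CAGTGN loop closed by 5 paired bases, with an unpaired C before them, found the element in 160 of 21877 protein-coding genes (0.731%). Of the 10 genes it was found in *Slc40a1*, at bases 96 to 112 of the 3370-base transcript before the coding sequence, and at 4 places after the coding sequence of *Tfrc*, between bases 3321 and 3828 of 4890. Of the other genes of the pathway and marker lists, *Fth1*, *Ftl1* and the erythroid marker *Alas2* held 1 each before the coding sequence.
Slc40a1: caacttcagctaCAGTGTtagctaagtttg
Tfrc element 1: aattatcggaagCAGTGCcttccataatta
Tfrc element 2: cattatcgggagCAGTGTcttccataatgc
Tfrc element 3: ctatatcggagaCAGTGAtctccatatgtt
Tfrc element 4: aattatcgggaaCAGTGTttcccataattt

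Values are FPKM, fragments scaled to the length of the transcript and to the mapped reads of the library, as deposited, so levels can be compared between genes per length of transcript. The tables hold no counts and their depth per value is unknown. FPKM summed over all genes lay between 554796 and 588433 in 16 of the livers; it was 629067 in KO319HFD and 718746 in KOhfd51. *Gpr180* itself had 6.79 ± 1.99 FPKM (SD, n = 9) in WT and 23.6% of that mean in *Gpr180*KO, and its ranges (4.46 to 9.24 against 0.876 to 1.99) did not overlap (limma adjusted p = 4.74e-06). The sample titles follow 2 styles. Titles such as W317HFD and KO319HFD are called series 1 here (4 livers per genotype), and titles such as WThfd131 and KOhfd51 are called series 2 (5 per genotype). What the styles stand for is not given in the sources used here, so genotype differences are also given within each series. Separate litters or cages are not labelled, and p-values measure only the spread between these livers. Because the livers are bulk tissue, fewer cells of a type and less RNA per cell cannot be told apart.

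None of the 10 genes passed the test of the genotypes after adjustment over all genes. With limma on log2(FPKM + 0.1), where fold changes of low genes are understated, and an adjusted p threshold of 0.05, the calls among them were 0 lower and 0 higher. Of the 10835 genes tested 4.28% were called lower (464 genes) and 0.452% higher (49 genes), a split that became 147 lower and 146 higher when libraries were scaled by the median of their ratios to a reference. At an unadjusted p under 0.05 there was 1 lower (*Tfrc*) and 1 higher (*Hamp*), against 19.6% and 2.54% of all genes. The exact permutation test of the genotypes, run on each gene by itself, passed 0.05 for 1 of the 10, *Hamp*. No gene had ranges that did not overlap between the genotypes, as 0.231% of all genes (25 genes) had. The median log2 fold change of the 10 genes was -0.01, beside -0.13 over all genes tested. Median-of-ratios scaling moved the median of all genes from -0.13 to 0.02 and that of the 10 genes to 0.15, and left 0 called. All 10 had a mean of at least 1 FPKM, the minimum for the test.

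**Figure D1:**
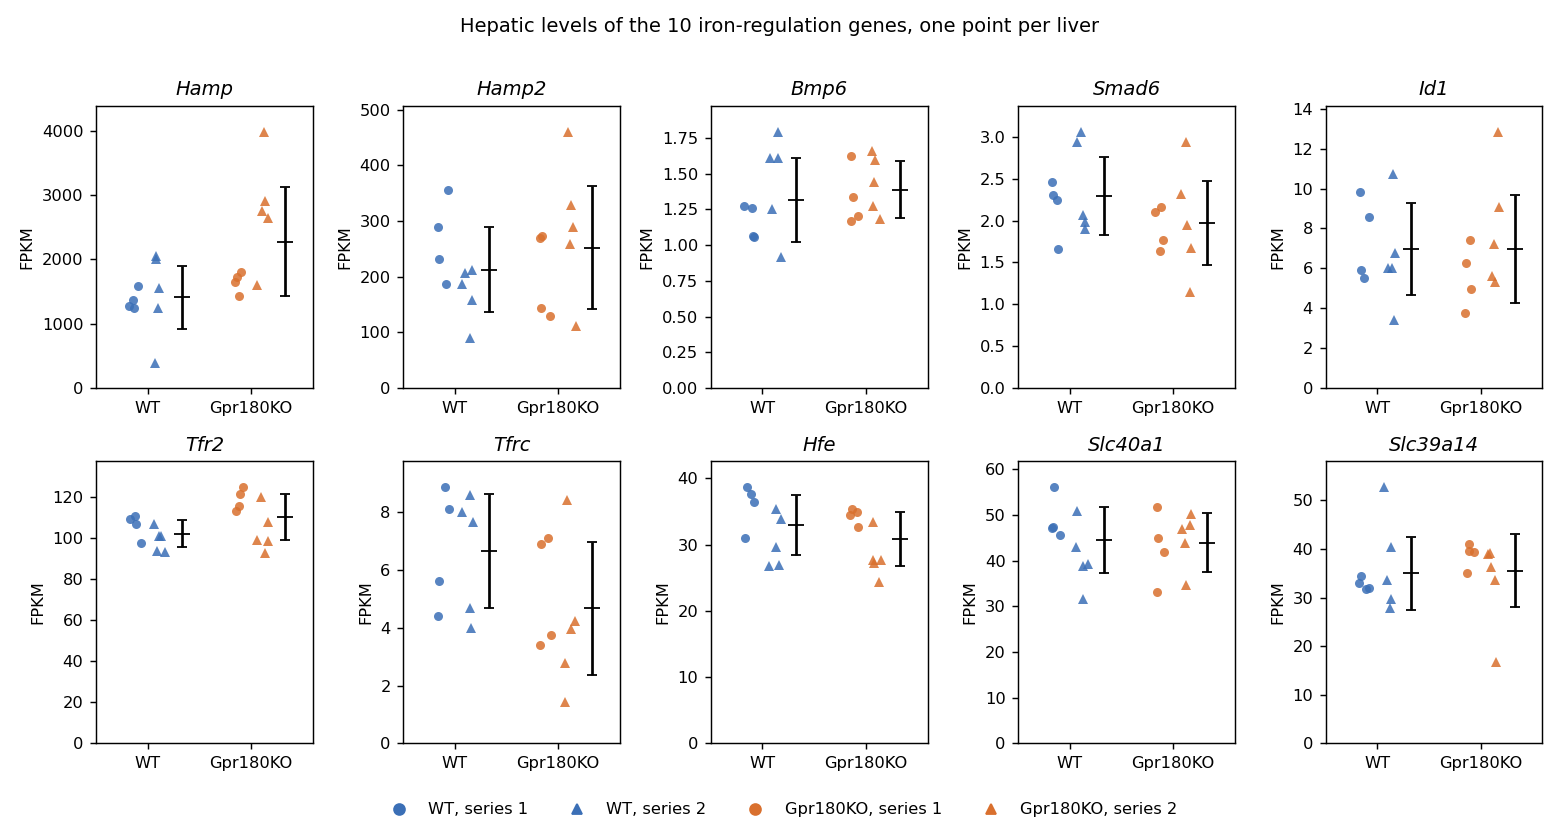
FPKM of each gene (vertical axes, each from 0) in 9 WT and 9 Gpr180KO livers, with circles for series 1, triangles for series 2, and a black bar for the mean ± SD of the genotype. The genotypes overlap in every panel; 4 Gpr180KO livers lie above all WT livers for Hamp and 5 lie below all WT livers for Tfrc.

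Levels differed far more between the genes than between the livers. *Hamp* stood first with a mean of 1841 FPKM over the 18 livers, followed by *Hamp2* (232), *Tfr2* (106), *Slc40a1* (44.2), *Slc39a14* (35.3) and *Hfe* (31.9). *Id1* (6.96), *Tfrc* (5.67), *Smad6* (2.13) and *Bmp6* (1.35) were low. In this order only the steps from *Tfr2* to *Slc40a1* and from *Hfe* to *Id1* separated genes whose ranges over the livers did not overlap. *Slc39a14* was above *Hfe* in 12 of 18 livers and *Id1* above *Tfrc* in 12 of 18, so those neighbours did not separate beyond their spread. *Hamp* was above *Hamp2* in all 18 livers.

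The spread between livers of 1 genotype differed widely among the genes. On the log2 scale the SD within a genotype was 0.63 for *Tfrc*, 0.63 for *Hamp2* and 0.62 for *Hamp*, each above 93.6% or more of all genes tested. *Tfr2* was the steadiest, with 0.13, above only 3.02% of all genes. The 95% interval that the files give with each value had a median half-width of 3.66% of its midpoint for *Hamp* and 3.79% for *Tfr2*, but 28.3% for *Bmp6* and 28.7% for *Id1*. The values of *Bmp6* and *Id1* thus had the widest intervals. Those of *Hamp* varied between livers by far more than the width of their interval. For *Hamp*, *Hamp2* and *Tfr2* the FPKM lay outside its own interval in all 18 livers. It lay inside in only 12 livers for *Hfe* and 15 for *Slc40a1*. For these genes the width may not give the precision of the value, and their level is uncertain.

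*Bmp6* (chr13:38345716-38499728; coordinates here and below are those of the files, build mm10) encodes the ligand that endothelial cells release in response to iron and that drives hepcidin. GENCODE places *Txndc5* and *4930579J19Rik* of the opposite strand over parts of it. Its FPKM ran from 0.914 through a median of 1.26 to 1.80 in WT livers and from 1.17 through 1.34 to 1.66 in *Gpr180*KO livers. The knockout range lay inside the WT range, with WThfd156 highest and WThfd131 lowest of all. Means were 1.32 ± 0.30 and 1.39 ± 0.20 (SD, n = 9), with a log2 fold change of 0.09 (SE 0.13, 95% interval -0.19 to 0.37, limma adjusted p = 0.705). The sums of endothelial markers overlapped: the 10 on the list added up to between 139.7 and 228 FPKM in WT and between 133 and 205 in *Gpr180*KO, with none called, and their part in the *Bmp6* values was not tested.

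*Tfr2* (chr5:137569851-137587481) encodes transferrin receptor 2, a hepatocyte sensor of iron-loaded transferrin that promotes hepcidin. In series 1 its FPKM was 109 in W317HFD, 97.7 in W318HFD, 110.6 in W319HFD and 107 in W320HFD, against 121 in KO319HFD, 113 in KO320HFD, 116 in KO321HFD and 125 in KO322HFD. Every series 1 knockout liver was thus above every series 1 WT liver. In series 2 the WT livers had 100.9, 93.6, 93.3, 101.0 and 107 FPKM, and the knockout livers 119.8 (KOhfd51), 108 (KOhfd52), 92.9 (KOhfd53), 99.1 (KOhfd54) and 98.6 (KOhfd56). There the genotypes overlapped widely, and KOhfd53 was the lowest of all livers. Over both series the means were 102 ± 6.53 and 110.4 ± 11.4 FPKM, and the log2 fold change of 0.11 (SE 0.07, 95% interval -0.04 to 0.25) did not pass (limma adjusted p = 0.375). It was 0.16 in series 1 and 0.06 in series 2. With median-of-ratios scaling it was 0.26 (interval 0.10 to 0.42, adjusted p = 0.0755), and with the title series added to that fit the adjusted p was 0.0508, still above the threshold.

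*Hfe* (chr13:23703841-23710811) encodes the hemochromatosis protein, a partner of transferrin receptors whose loss lowers hepcidin. It ranged from 26.8 through a median of 33.9 to 38.7 FPKM in WT and from 24.3 through 32.6 to 35.4 in *Gpr180*KO. The genotypes overlapped, and only KOhfd52 was below all WT livers. By limma they differed by -0.09 on the log2 scale (SE 0.10, interval -0.29 to 0.11, adjusted p = 0.579), and with median-of-ratios scaling by 0.06, the other way. Series 2 livers were lower than series 1 livers in both genotypes, with means of 30.5 ± 3.96 against 35.9 ± 3.44 in WT and 28.1 ± 3.30 against 34.4 ± 1.24 in *Gpr180*KO.

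*Smad6* (chr9:63953076-64022059) encodes an inhibitory SMAD and *Id1* (chr2:152736274-152737410) an inhibitor of DNA binding, and both are direct targets of BMP-SMAD signalling that rise with it. *Smad6* ranged from 1.66 through a median of 2.25 to 3.06 FPKM in WT and from 1.15 through 1.94 to 2.94 in *Gpr180*KO. The genotypes overlapped, with 7 of 9 knockout livers below the WT mean and 2 below every WT liver. Its log2 fold change was -0.23 (SE 0.15, interval -0.54 to 0.09, adjusted p = 0.385) and -0.08 with median-of-ratios scaling.

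*Id1* ranged from 3.39 through a median of 6.03 to 10.7 FPKM in WT and from 3.77 through 6.28 to 12.9 in *Gpr180*KO. The livers at the extremes were WThfd157 and KOhfd51, both of series 2, and the means of 6.97 ± 2.31 and 6.96 ± 2.71 nearly coincided. The log2 fold change of -0.01 (SE 0.22, interval -0.47 to 0.44, adjusted p = 0.973) turned to 0.14 with median-of-ratios scaling. It was -0.40 in series 1 and 0.30 in series 2, and the difference between the series did not pass limma's interaction test (adjusted p = 0.727).

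*Hamp* (chr7:30942369-30944017) encodes hepcidin itself. In series 1 its FPKM was 1249 in W317HFD, 1577 in W318HFD, 1271 in W319HFD and 1359 in W320HFD, against 1423 in KO319HFD, 1724 in KO320HFD, 1801 in KO321HFD and 1640 in KO322HFD. In series 2 it was 2045 in WThfd131, 384 in WThfd133, 2007 in WThfd134, 1245 in WThfd156 and 1546 in WThfd157, against 2633 in KOhfd51, 1594 in KOhfd52, 2903 in KOhfd53, 2749 in KOhfd54 and 3984 in KOhfd56. All 9 knockout livers were above the WT mean and 4, all of series 2, were above every WT liver; the genotypes overlapped between 1423 and 2045 FPKM. WThfd133 stood far below every other liver.

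The means of *Hamp* were 1409 ± 492 FPKM in WT and 2272 ± 851 in *Gpr180*KO, 1.61 times as high. On the log2 scale the difference was 0.73 (SE 0.27, 95% interval 0.17 to 1.28, unadjusted p = 0.0129) and did not pass adjustment (limma adjusted p = 0.115). The exact permutation test of the 9 against 9 livers alone gave a two-sided p of 0.0117. It was 0.27 in series 1 (means 1364 ± 150 and 1647 ± 163) and 1.09 in series 2 (1445 ± 680 and 2772 ± 850), and the difference between the series did not pass the interaction test (0.82, adjusted p = 0.738). Without WThfd133 the value was 0.51 (adjusted p = 0.165), and without both WThfd133 and KOhfd51 it was 0.47 (adjusted p = 0.193). Hepatocyte markers moved the same way: 9 of the 10 on the list had a higher mean log2 level in *Gpr180*KO, and none passed adjustment. Of all genes tested 76.9% were lower as deposited and 44.9% with median-of-ratios scaling. The sum of the 10 markers ranged from 19412 through a median of 21550 to 23494 FPKM in WT and from 21542 through 23701 to 34541 in *Gpr180*KO. *Serpina1a*, a protease inhibitor gene, and *Pck1*, a gluconeogenic enzyme gene, had limma adjusted p of 0.0605 and 0.0613, and both were called higher with the title series added to the fit (0.0148 and 0.0268); *Pck1* was also called with median-of-ratios scaling (0.0471). The part of these markers in the *Hamp* values was not tested.

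*Hamp2* (chr7:30922372-30924181) encodes the second mouse hepcidin peptide. In series 1 its FPKM was 289 in W317HFD, 231 in W318HFD, 186 in W319HFD and 356 in W320HFD, against 269.7 in KO319HFD, 273 in KO320HFD, 129.5 in KO321HFD and 144 in KO322HFD. In series 2 it was 206 in WThfd131, 89.0 in WThfd133, 212 in WThfd134, 158 in WThfd156 and 187 in WThfd157, against 259 in KOhfd51, 111 in KOhfd52, 329 in KOhfd53, 290.0 in KOhfd54 and 461 in KOhfd56. The genotypes overlapped in both series, WThfd133 was again the lowest liver and KOhfd56 the highest. For *Hamp2* the log2 fold change was 0.20 (SE 0.27, interval -0.36 to 0.76, adjusted p = 0.675). It was -0.42 in series 1 and 0.69 in series 2, and the interaction of 1.11 had an unadjusted p of 0.0411 and an adjusted p of 0.643.

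*Hamp* and *Hamp2* varied together over the 18 livers by Pearson's r, while the rank correlation did not pass adjustment. On log2(FPKM + 0.1) r was 0.66 (permutation adjusted p = 0.0228 over the 9 genes paired with *Hamp*), Spearman's rho was 0.42 (permutation adjusted p = 0.36), and r was 0.26 without the 2 livers farthest from the median of *Hamp*. The relation therefore rested on those livers. Within the title series r was -0.52 over the 8 livers of series 1 and 0.90 over the 10 livers of series 2, so it did not hold within both. Within the genotypes it was 0.69 in WT (exact permutation adjusted p = 0.426) and 0.72 in *Gpr180*KO (0.332), with p-values adjusted over the 18 tests of 9 genes in each genotype. *Hamp2* amounted to 16.4 ± 6.11% of *Hamp* in WT livers and 11.2 ± 3.94% in *Gpr180*KO livers, a ratio that does not depend on scaling between libraries and was computed after the values had been seen. The ranges overlapped (10.1 to 26.2% against 6.99 to 19.0%), and the log2 difference of -0.53 had a two-sided exact permutation p of 0.0401, with -0.69 in series 1 and -0.40 in series 2.

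**Figure D2:**
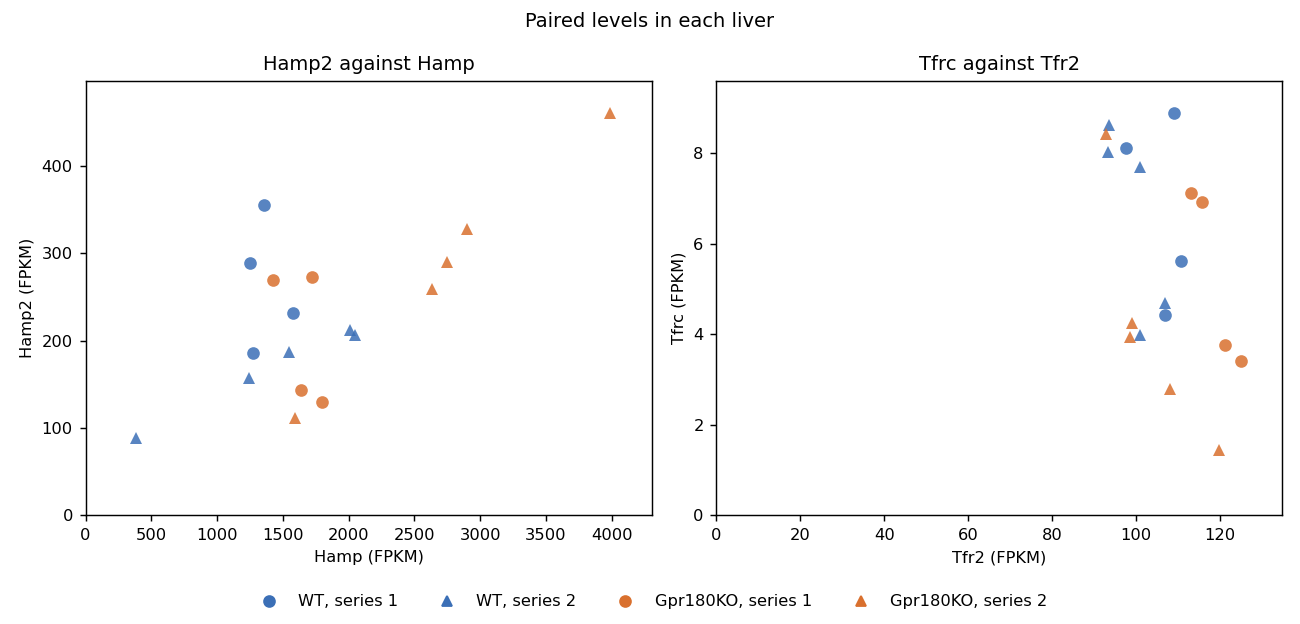
Hamp2 against Hamp (left) and Tfrc against Tfr2 (right) in each liver, in FPKM on linear axes from 0, coloured by genotype and shaped by title series. Series 2 livers line up from WThfd133 (384 and 89.0 FPKM) to KOhfd56 (3984 and 461) in the left plot, while series 1 livers do not; on the right the lowest Tfrc value, 1.44 in KOhfd51, belongs to a liver with 119.8 FPKM of Tfr2.

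*Tfrc* (chr16:32608896-32632794) encodes transferrin receptor 1, through which cells take up transferrin iron, and its transcript carries the 4 elements printed above. In series 1 its FPKM was 8.88 in W317HFD, 8.11 in W318HFD, 5.62 in W319HFD and 4.42 in W320HFD, against 3.76 in KO319HFD, 7.12 in KO320HFD, 6.91 in KO321HFD and 3.40 in KO322HFD. In series 2 it was 7.69 in WThfd131, 8.62 in WThfd133, 8.01 in WThfd134, 3.98 in WThfd156 and 4.69 in WThfd157, against 1.44 in KOhfd51, 2.79 in KOhfd52, 8.43 in KOhfd53, 4.25 in KOhfd54 and 3.94 in KOhfd56. The genotypes overlapped: 5 knockout livers lay below every WT liver, while KOhfd53 was among the highest of all.

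The means of *Tfrc* were 6.67 ± 1.97 FPKM in WT and 4.67 ± 2.30 in *Gpr180*KO, the knockout mean being 70.1% of the WT mean. On the log2 scale the difference was -0.61 (SE 0.27, 95% interval -1.18 to -0.04, unadjusted p = 0.0357), which did not pass adjustment (limma adjusted p = 0.191). An exact permutation test of *Tfrc* by itself gave 0.0527. The value was -0.37 in series 1, -0.80 in series 2, -0.46 with median-of-ratios scaling and -0.37 without WThfd133 and KOhfd51. *Tfrc* as a share of *Tfr2*, also computed after the values had been seen, was 6.60 ± 2.16% in WT and 4.36 ± 2.40% in *Gpr180*KO with overlapping ranges (3.94 to 9.21% and 1.20 to 9.07%), which is -0.73 on the log2 scale (exact permutation p = 0.0404, two-sided). It was -0.54 in series 1 and -0.89 in series 2. The lowest share, 1.20%, belonged to KOhfd51, and no ratio without that liver is given here. Without KOhfd51 the log2 fold change of *Tfrc* itself was -0.43 (limma adjusted p = 0.26). Erythroid markers, whose cells are rich in this receptor, summed to between 576 and 1261 FPKM in WT and between 582 and 1646 in *Gpr180*KO, with 0 of the 5 tested called (*Alas2* was with median-of-ratios scaling, higher, adjusted p = 0.0449), and their part in the *Tfrc* values was not tested.

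*Slc39a14* (chr14:70303467-70351424) encodes ZIP14, which brings iron that is not bound to transferrin into hepatocytes. In WT livers it ranged from 27.8 through a median of 32.9 to 52.7 FPKM and in *Gpr180*KO livers from 16.7 through 38.9 to 41.0. The highest liver was WThfd131 and the lowest KOhfd51, while the other 8 knockout livers lay between 33.6 and 41.0. The genotypes differed by 0.00 on the log2 scale (SE 0.15, interval -0.31 to 0.32, adjusted p = 0.989). In series 1 all 4 knockout livers (35.1 to 41.0 FPKM) were above all 4 WT livers (31.8 to 34.4 FPKM) and the value was 0.24, just short of the threshold when series 1 was fitted alone (limma adjusted p = 0.0508). In series 2 it was -0.18, and the interaction did not pass (adjusted p = 0.779). Fitted alone, series 1 gave 90 of 10835 genes called higher and 488 called lower.

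*Slc40a1* (chr1:45908070-45925594) encodes ferroportin, the exporter that hepcidin removes, and in liver it is abundant in Kupffer cells. It ranged from 31.6 through a median of 45.6 to 56.1 FPKM in WT and from 33.2 through 44.9 to 51.8 in *Gpr180*KO. The knockout range lay inside the WT range. Its log2 fold change was -0.01 (SE 0.11, interval -0.24 to 0.21, adjusted p = 0.946), with -0.21 in series 1, 0.14 in series 2 and 0.14 with median-of-ratios scaling. The 10 markers of Kupffer cells and macrophages summed to between 227 and 572 FPKM in WT and between 269 and 386 in *Gpr180*KO, and 1 of them, *Cd68*, fell, a call lost without any of 4 single livers (W317HFD, W318HFD, WThfd133 or KOhfd53; adjusted p of up to 0.0592). The part of these cells in the *Slc40a1* values was not tested.

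**Figure D3:**
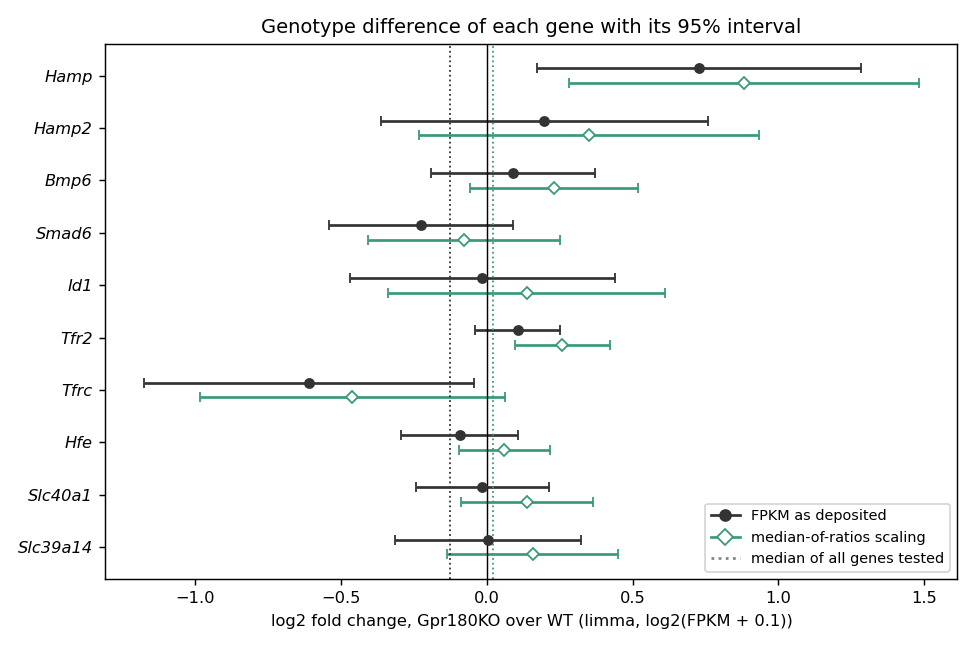
Log2 fold change of Gpr180KO over WT with its 95% interval (limma) for each gene, from FPKM as deposited (filled circles) and after median-of-ratios scaling (open diamonds); dotted lines give the medians over all genes tested, -0.13 and 0.02. The intervals of Hamp (above 0) and of Tfrc as deposited (below 0) leave out 0, as does that of Tfr2 after scaling only, and none of these passed adjustment over all genes.

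The other genes of the pathway were counted on lists by role, to be read beside the 4.28% lower and 0.452% higher over all genes tested. Among 16 BMP and related ligands and antagonists, 9 were tested, 2 fell and 0 rose, with a median log2 fold change of -0.29 beside -0.13 over all genes, and none was called with median-of-ratios scaling. The 2 were *Gdf2*, which encodes BMP9, a circulating BMP made in the liver, and *Gdf15*, which encodes a stress-induced hormone distantly related to BMPs. *Bmp2*, an endothelial ligand that also drives hepcidin, stood at 4.54 FPKM in WT and 4.52 in *Gpr180*KO. The lists share the livers of the comparison with the 10 genes and are described by their counts alone.

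*Gdf2* was 7.45 ± 0.88 FPKM in WT (6.20 to 9.37) and 5.67 ± 1.09 in *Gpr180*KO (4.20 to 7.49), and the genotypes overlapped through WThfd157 at 6.20 on one side and KO319HFD at 7.49 on the other. Its log2 fold change was -0.40 (SE 0.11, adjusted p = 0.0384), with -0.12 in series 1 and -0.62 in series 2. With median-of-ratios scaling it was -0.25 and no longer passed (adjusted p = 0.117), and it was lost without any of 10 single livers (W317HFD, W318HFD, W320HFD, WThfd131, WThfd133, WThfd156, KOhfd52, KOhfd53, KOhfd54 or KOhfd56), with an adjusted p of up to 0.0863.

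*Gdf15* was 8.62 ± 4.03 FPKM in WT (4.03 to 15.5) and 3.70 ± 2.18 in *Gpr180*KO (1.87 to 9.01). All but 3 knockout livers (KO319HFD, KO322HFD and KOhfd51) lay below every WT liver. Its log2 fold change was -1.21 (SE 0.30, adjusted p = 0.0302), -1.20 in series 1 and -1.22 in series 2. With median-of-ratios scaling it was -1.06 (adjusted p = 0.0512), and it was lost without any of 7 single livers (W317HFD, W318HFD, W320HFD, WThfd133, KOhfd52, KOhfd53 or KOhfd54).

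Receptors and transducers gave no call. Of 12 BMP receptors, co-receptors and membrane regulators 9 were tested and 0 called (median -0.21), including *Hfe2*, which encodes hemojuvelin, the BMP co-receptor of hepatocytes (52.4 ± 3.40 FPKM in WT and 46.2 ± 9.35 in *Gpr180*KO, adjusted p = 0.247), and *Eng*, the endothelial co-receptor endoglin (24.4 ± 2.61 and 21.4 ± 3.74 FPKM, adjusted p = 0.272). Of the 4 SMAD transducers 0 were called (median -0.07). *Smad1* stood at 4.58 ± 0.26 and 4.02 ± 0.60 FPKM (adjusted p = 0.217) and *Smad5* at 5.46 ± 0.60 and 5.24 ± 1.01 (adjusted p = 0.705). Of 5 other BMP-SMAD targets 4 were tested and 0 called (median 0.06). The inhibitory SMAD gene *Smad7* had 1.73 ± 0.34 and 1.44 ± 0.14 FPKM (adjusted p = 0.262), and *Id2* had 140 ± 20.5 and 157 ± 20.4 FPKM (adjusted p = 0.32).

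The interleukin 6 and STAT3 input held 8 genes, of which 7 were tested and 0 called (median -0.21). *Socs3*, a STAT3 target that feeds back on the pathway, had 2.41 ± 1.20 FPKM in WT and 3.57 ± 1.502 in *Gpr180*KO (log2 fold change 0.55, adjusted p = 0.259), and the kinase gene *Tyk2* had 6.58 ± 0.67 and 5.64 ± 1.35 (adjusted p = 0.266). *Il6* itself was under 1 FPKM and was not tested.

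Iron storage and regulation gave no call either: of the 10 genes for transferrin, ferritin and iron regulatory proteins 0 were called (median -0.13). *Fth1*, the ferritin heavy chain gene, had 1849 ± 279 FPKM in WT and 1594 ± 455 in *Gpr180*KO (log2 fold change -0.24, adjusted p = 0.311), and *Fbxl5*, which encodes the subunit that marks an iron regulatory protein for degradation, had 12.2 ± 1.083 and 10.5 ± 1.94 FPKM (adjusted p = 0.217). Ferritin responds to iron mainly in translation, and the data hold no protein. Of 11 heme handling genes 0 were called (median -0.24). *Slc48a1*, a heme transporter gene, had 22.9 ± 2.23 and 19.5 ± 2.92 FPKM (adjusted p = 0.126), and it passed with the title series added to the fit (adjusted p = 0.0442). *Hp*, which encodes the hemoglobin scavenger haptoglobin, had 2277 ± 399 and 1866 ± 346 FPKM (adjusted p = 0.17).

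Among 16 genes for iron uptake, export and ferroxidases 11 were tested, 1 fell and 0 rose (median -0.27). With the title series added to the fit 4 fell (*Lcn2*, *Steap4* and, named after their values were seen, *Slc11a1* and *Cp*). That fit called 1031 of all 10835 genes tested lower, against 464 in the main fit. With median-of-ratios scaling as well, *Lcn2* fell (limma adjusted p = 0.0109) and *Steap3*, also named after its values were seen, rose (0.0295). *Steap4* (0.0878), *Slc11a1* (0.165) and *Cp* (0.333) then did not pass, beside 332 of all genes called lower and 303 higher. The 1 in the main fit was *Lcn2*, which encodes lipocalin 2, a binder of bacterial siderophores and an acute-phase protein, with 63.0 ± 38.4 FPKM in WT (8.57 to 125) and 14.8 ± 11.4 in *Gpr180*KO (2.40 to 29.8). All series 1 knockout livers (22.9 to 29.8 FPKM) lay below all series 1 WT livers (34.6 to 96.5), while in series 2 WThfd157 at 8.57 was below KOhfd51 at 13.3. Its log2 fold change was -2.27 (SE 0.57, adjusted p = 0.0309), -1.39 in series 1 and -2.98 in series 2, and -2.12 with median-of-ratios scaling (adjusted p = 0.0428). The call was lost without any of 7 single livers, the same that ended the call of *Gdf15*. *Steap4*, a ferrireductase gene, had 66.9 ± 20.8 and 43.2 ± 10.1 FPKM (log2 fold change -0.62, adjusted p = 0.0503).

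**Figure D4:**
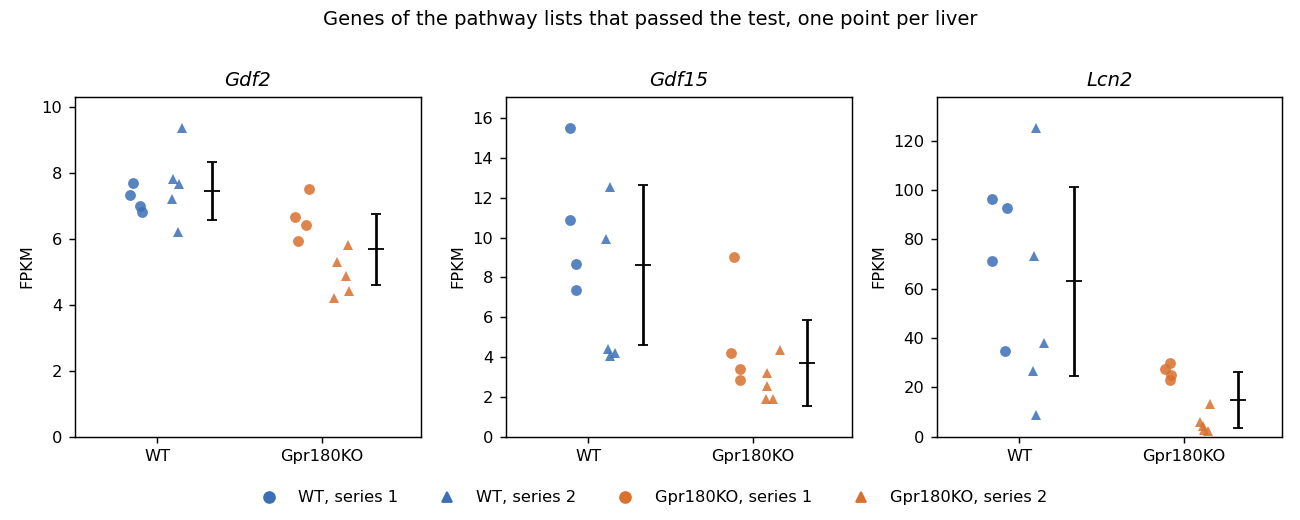
FPKM (vertical axes from 0) of Gdf2, Gdf15 and Lcn2 in each liver, with circles for series 1, triangles for series 2, and black bars for the mean ± SD. Most Gpr180KO livers lie low in each panel, and the genotypes still overlap in all of them.

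Summed over the list, the hepatocyte markers reached 19412 FPKM or more in every liver, and no other marker list passed 1646 FPKM. Single markers did not all keep this order: in WT the erythroid gene *Hba-a1* had a mean of 587 FPKM and the hepatocyte gene *Ass1* 61.0. Of the marker lists, that of hepatic stellate cells and fibroblasts had the most calls: 4 of 10 fell (*Dcn*, *Col1a1*, *Col3a1* and *Pdgfrb*). *Lrat*, *Des*, *Ecm1* and *Colec11*, named after their values were seen, were not called (limma adjusted p of 0.446 to 0.812). The log2 fold changes of *Des*, *Ecm1* and *Colec11* were 0.065, 0.021 and 0.033 after median-of-ratios scaling. The list sum ranged from 247 to 367 FPKM in WT and from 135 to 248 in *Gpr180*KO, and *Dcn* had the highest mean on the list in both genotypes. With median-of-ratios scaling 4 fell, beside 147 of all 10835 genes tested. With the title series added 5 fell, beside 1031 of all genes tested, and *Reln*, named after its values were seen, also passed (limma adjusted p = 0.015). *Dcn*, which encodes the matrix protein decorin, was 144 ± 24.3 FPKM in WT and 89.7 ± 12.6 in *Gpr180*KO, and *Col3a1*, a fibrillar collagen gene, was 30.2 ± 13.8 and 8.83 ± 4.10. *Cd68*, a macrophage gene, was 19.3 ± 4.55 and 11.9 ± 2.84 FPKM (adjusted p = 0.0257), and the lysozyme gene *Lyz2* was 118 ± 41.3 and 76.2 ± 15.9 FPKM (adjusted p = 0.13). Among endothelial genes none was called, and those with the lowest p were *Cdh5*, a junction gene, with 11.0 ± 1.54 and 9.18 ± 2.09 FPKM (adjusted p = 0.231), and *Lyve1*, a hyaluronan receptor gene, with 7.18 ± 2.20 and 5.47 ± 1.72 FPKM (adjusted p = 0.268). Hepatocyte and erythroid genes gave no call either, apart from *Serpina1a*, *Pck1* and *Alas2* in the alternatives given above. The globin gene *Hbb-b2*, whose reads can be split among near-identical copies, ran from 0.000473 to 243 FPKM in WT and from 0.000597 to 26.6 in *Gpr180*KO (adjusted p = 0.311). Beyond these, the 9 lymphocyte genes found were all under 1 FPKM. The part of these cells in the falls of *Gdf2*, *Gdf15* and *Lcn2* was not tested.

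**Figure D5:**
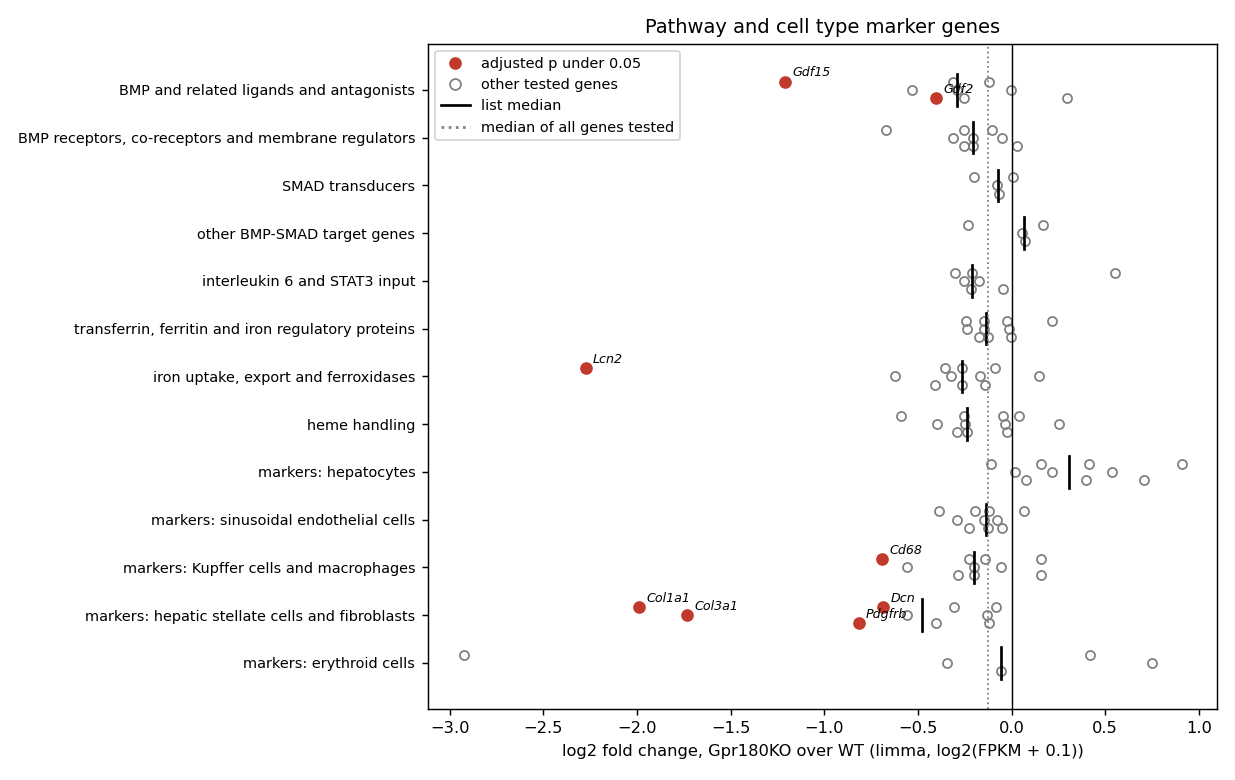
Log2 fold change of Gpr180KO over WT (limma) of each tested gene of the pathway and marker lists, with red for an adjusted p under 0.05, a black bar for the list median and a dotted line for the median of all genes tested (-0.13). The red points are Gdf15, Gdf2, Lcn2, Cd68, Dcn, Col1a1, Col3a1 and Pdgfrb, all to the left of 0.

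Apart from *Hamp2*, the correlation with *Hamp* over the 18 livers passed adjustment for none of the genes. Pearson's r with *Hamp* was 0.24 for *Id1* (Spearman's rho 0.22), -0.17 for *Bmp6*, 0.01 for *Smad6*, 0.02 for *Tfr2*, -0.30 for *Tfrc*, -0.24 for *Hfe*, -0.05 for *Slc40a1* and 0.18 for *Slc39a14*, and the lowest permutation adjusted p among these 8 was 0.744. *Slc39a14* had a rho of 0.51 (permutation adjusted p = 0.269). None of the 18 correlations within a genotype passed adjustment by the exact permutation test; *Tfr2* had an r of -0.72 in *Gpr180*KO (adjusted p = 0.332) and 0.23 in WT. With median-of-ratios scaling the r of *Tfr2* over all livers was 0.47 in place of 0.02 (permutation adjusted p = 0.234).

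Among all genes tested, those whose log2 values followed *Hamp* most closely over the 18 livers were *Gm4956* (Pearson's r 0.87), *Agxt* (0.82), *Gls2* (0.82), *Serpina1a* (0.81) and *Serpina1c* (0.81). *Agxt* and *Gls2* encode enzymes of glyoxylate and glutamine metabolism, and the *Serpina1* genes, a family of near-identical copies whose reads can be split between members, encode secreted protease inhibitors. *Agxt* (log2 fold change 0.72, adjusted p = 0.0169) and *Serpina1c* (0.52, adjusted p = 0.0436) rose in *Gpr180*KO, and the call of *Serpina1c* was lost without any of 12 single livers (adjusted p of up to 0.101). The other 3 did not pass: *Gm4956* (1.04, adjusted p = 0.09), *Gls2* (0.66, adjusted p = 0.0527) and *Serpina1a* (0.42, adjusted p = 0.0605). All 5 correlations include the difference between the genotypes. The genes closest to *Id1* were *Caml* (0.83), *Rabl5* (0.81), *Zfp622* (0.77), *Lsm5* (0.77) and *Rnf130* (0.77), none of which passed the test of the genotypes after adjustment (lowest adjusted p = 0.348). These likenesses are descriptions over livers that share genotype and title series.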

How the data were processed

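Poly(A) RNA of 18 livers (9 WT, 9 *Gpr180*KO) was sequenced from TruSeq mRNA libraries as single 75-base reads. Per the study's methods, the authors aligned the reads to mm10 with the TopHat application, whose output FPKM values they deposited as 1 table per liver; the annotation and settings are not given in the sources used here. The tables held no counts, so the depth of each single library is unknown and no count model was run. The study's methods give only an approximate range of reads per sample. Each table had 23847 entries; entries of the same symbol were summed to 23352 symbols, and 24 genes with a failed estimate were left out.

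Genes with a mean of at least 1 FPKM (10835) were tested on log2(FPKM + 0.1) with limma 3.58.1 (lmFit, eBayes with trend; R 4.3.3), Benjamini-Hochberg adjustment over all of them and a threshold of 0.05. Every adjusted p of a single gene is from this fit unless a sentence says otherwise. Correlations used 100000 permutations, or all pairings within a genotype. On simulated data with 200 genes changed by 1 on the log2 scale (10835 genes, WT against *Gpr180*KO), 89.5% were recovered and 3.24% of calls were false. The recovered share is for a change of that size in genes of all spreads. *Hamp*, *Hamp2* and *Tfrc* spread more than most genes and had smaller estimated changes, so it does not describe them. Differences of scaling between libraries and the title series were not simulated.

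Genotypes came from the sample labels. The 10 genes, the pathway lists and the marker lists were chosen with earlier results of these data known. Named from each list were all genes past the threshold, or the 2 with the lowest p where fewer passed, and the 5 genes closest to *Hamp* and to *Id1*. *Bmp2*, *Il6*, *Slc11a1*, *Cp*, *Steap3*, *Reln*, *Lrat*, *Des*, *Ecm1*, *Colec11*, the 2 ratios and the fit without WThfd133 and KOhfd51 were chosen after seeing the data. Alternatives covered pseudocounts, FPKM minimums, scalings, TPM, title series, eBayes options, library weights and each liver left out. Promoter windows came from RefSeq (7 of the 10 genes matched) and transcripts from GENCODE. Figures were drawn with matplotlib 3.10.9 in Python 3.11.15.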

Additional observations from a re-analysis of the deposited data

Results flagged for a closer look

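In 2 of the 20 sets of livers examined (10 genes in each genotype), a single liver stood apart from the other 8 on the log2 scale by Dixon's ratio, the gap to the nearest liver divided by the whole range; chance gives about 1 in 20. For *Hamp* in WT it was WThfd133, with 384 FPKM against 1245 in the next liver (ratio 0.704). For *Slc39a14* in *Gpr180*KO it was KOhfd51, with 16.7 FPKM against 33.6 in the next liver (ratio 0.780). KOhfd51 also had the largest FPKM sum of all libraries. Without WThfd133 the log2 fold change of *Hamp* was 0.51 in place of 0.73, and without KOhfd51 that of *Slc39a14* was 0.13 in place of 0.00.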

How the results depend on the processing

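None of the 10 genes was called in any of the 34 alternatives (33 for *Bmp6* and *Smad6*, which an FPKM minimum of 5 left out). The adjusted p of *Hamp* ranged from 0.0678 to 0.231, that of *Tfrc* from 0.127 to 0.49 and that of *Tfr2* from 0.0508 to 0.702. *Hamp*, *Bmp6*, *Smad6*, *Tfr2* and *Tfrc* kept their direction in every alternative. FPKM without counts and 2 title styles of unknown meaning limit the precision, most of all for *Bmp6* and *Id1*.

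The number of all genes called, 513, became 837 with an FPKM minimum of 0.1, 238 with 5 and 313 with none. It was 293 with median-of-ratios scaling, 254 with 75th percentile scaling, 1153 with the title series added, 1331 with library weights and 249 without WThfd133 and KOhfd51. Series 2 alone gave 0 by limma (1783 lower and 236 higher at an unadjusted p under 0.05), and *Gpr180* itself then had an adjusted p of 0.0654. Leaving out single livers gave 132 (without WThfd133) to 922 (without WThfd157). The cause was not tested.

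Log2 fold changes turned in direction for 5 genes, none with a call. *Hamp2* was -0.42 in series 1 and -0.21 with library weights. *Id1* was 0.14 with median-of-ratios scaling, with or without the title series, 0.063 with 75th percentile scaling, 0.30 in series 2 and -0.13 to 0.083 without single livers. *Hfe* was 0.061 with median-of-ratios scaling, with or without the title series. *Slc40a1* was 0.14 in both of those fits and in series 2, 0.064 with 75th percentile scaling, 0.023 without WThfd133 and KOhfd51 and -0.074 to 0.034 without single livers. *Slc39a14* was -0.034 on TPM, -0.18 in series 2 and -0.035 to 0.13 without single livers.

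Correlations with *Hamp* turned as well. For *Hamp2* r was -0.52 in series 1 and 0.48 to 0.72 without single livers; its adjusted p was 0.474 without WThfd133, 0.0535 without KOhfd53 and 0.128 without KOhfd56. For *Bmp6* r was 0.17 with median-of-ratios scaling, 0.0024 with 75th percentile scaling, 0.26 in series 1 and -0.33 to 0.032 without single livers. For *Smad6* it was -0.067 on TPM, -0.034 in series 2 and -0.088 to 0.20 without single livers. For *Tfr2* it was -0.071 on TPM, 0.47 with median-of-ratios scaling and -0.37 to 0.13 without single livers. For *Slc40a1* it was 0.29 with median-of-ratios scaling, 0.13 with 75th percentile scaling, 0.031 in series 2 and -0.10 to 0.040 without single livers. *Id1* had -0.42 and *Tfrc* 0.016 in series 1, and *Hfe* 0.14 with median-of-ratios scaling. That scaling also gave 0.72 for *Hamp2*, 0.39 for *Slc39a14*, 0.38 for *Id1* and 0.23 for *Smad6*, of which only *Hamp2* passed adjustment.

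Of the called genes, *Gdf2* was called in 17 of 34 alternatives, *Gdf15* in 22, *Lcn2* in 24, *Cd68* in 26 and *Serpina1c* in 16. *Dcn*, *Col1a1*, *Col3a1* and *Agxt* were called in 33 of 34 and *Pdgfrb* in 32 of 33, all lost in series 2 alone. No paired analysis was possible for the 18 livers because only 2 title numbers occur in both genotypes (W319HFD with KO319HFD, W320HFD with KO320HFD) and nothing in the labels ties them to a shared litter, batch or day; these 2 pairs were not fitted by themselves.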
